A study of Homo sapiens with 16 samples.

Results

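The 40 genes described here encode the proteins of homologous recombination, the Fanconi anemia pathway, DNA end resection and the choice between recombination and end joining. They are the rows of the count table whose gene symbol is on a list of 40 names, and all 40 were found among the 59428 genes of the table. The rule that selects them is the gene symbol, and the list was drawn up with earlier results of these data known.

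The study treated OVCAR3 and UWB1.289, cell lines from serous ovarian carcinoma, with the PARP inhibitor olaparib and sequenced their RNA. The 4 groups were OVCAR3 with DMSO, the solvent control, OVCAR3 with 7.5 µM olaparib, UWB1.289 with DMSO and UWB1.289 with 3.5 µM olaparib, each kept for 96 h and each with 4 replicates, which gave 16 libraries. The doses were the inhibitory concentration (IC50) that the authors determined for each line. According to the design text OVCAR3 carries wild-type BRCA1 and UWB1.289 mutated BRCA1, and the whole experiment was carried out 4 times. Each BRCA1 status is represented by 1 established line, and each line had its own medium and dose, so that BRCA1 status cannot be told apart from the line, its medium or its dose. All libraries were QuantSeq libraries, which read the 3' end of polyadenylated RNA.

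In homologous recombination the ends of a double-strand break are first cut back by MRE11, RAD50, NBN and RBBP8 (CtIP), and then by EXO1 or by DNA2 with BLM or WRN. BRCA1 with BARD1, together with PALB2, brings BRCA2 to the resected ends, where XRCC2, XRCC3 and other strand exchange proteins act with it. The Fanconi pathway handles crosslinks between DNA strands, in that FANCM and a core complex with the ubiquitin ligase FANCL mark the FANCD2 and FANCI pair, while nucleases such as MUS81 with EME1 on the SLX4 scaffold cut the structures that remain. TP53BP1 (53BP1) and RIF1 protect ends from resection, and POLQ joins resected ends with short homologies. Cells that lack BRCA1 or BRCA2 function are known to be sensitive to PARP inhibitors, which is the reason such drugs are used in ovarian carcinoma.

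The 16 libraries held 5599571 to 7730228 counts, and the 40 genes together took 0.118% to 0.155% of them. Of 10 markers of serous ovarian carcinoma, PAX8, EPCAM, KRT7, KRT8 and KRT18 were abundant in both lines. WT1 had 0 counts in each UWB1.289 DMSO library and 642 to 882 in the OVCAR3 DMSO libraries. MUC16 and CDH1 were also lower in UWB1.289, with mean normalized counts of 236 and 152 with DMSO against 1359 and 735 in OVCAR3. FOLR1 and MSLN had 278 and 154 in UWB1.289 with DMSO against 339 and 163 in OVCAR3. KRT8, KRT18 and FOLR1 fell in OVCAR3 with olaparib by more than 2-fold. Of 10 markers of blood, endothelial and fibroblast cells, COL3A1 had 0 counts in every library and CD3E and DCN had at most 1, while PTPRC reached 32 to 48 counts in the UWB1.289 DMSO libraries and COL1A1 121 to 210 in the OVCAR3 DMSO libraries. Their summed normalized count lay between 159.6 and 213 in OVCAR3 with DMSO, 226 and 277 in OVCAR3 with olaparib, 82.2 and 109.7 in UWB1.289 with DMSO and 113 and 162 in UWB1.289 with olaparib, and its part in the results that follow was not tested.

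Many genes that act in S phase are controlled by E2F factors at the promoter, so that the promoters of the members were searched for E2F letters. The windows of RefSeq (GRCh38.p14) reach from 250 bases before to 50 bases after a transcription start, 300 bases in all, and 47 windows belong to 35 of the 40 members. FANCI, DNA2, NBN, RAD54B and WRN had no window. The letters searched on both strands were TTTCCCGC, TTTGGCGC, TTTCGCGC and TTTGCCGC for E2F, TTTGAA and TTCGAA for the cell cycle element CHR, and CCAAT for NF-Y, and no motif's letters contain those of another. At least 1 E2F match was found in 5 of the 47 windows (10.64%) and in 1164 of all 35116 windows (3.31%), whereas CHR letters were in 10.64% against 16.35% and NF-Y letters in 42.55% against 34.61%. The E2F windows belong to XRCC2, FANCD2, FANCA, EXO1 and FANCC. Of these, the first 4 are printed because their RNA passed a test with olaparib, and the capitals mark the E2F match, which in XRCC2, FANCD2 and FANCA is read on the other strand. Each is written 5′ to 3′ along the gene's own strand. A match is a description of the letters and not of a factor bound there.
XRCC2, chr7:152676092-152676391, reverse strand, match from base 22 after the start: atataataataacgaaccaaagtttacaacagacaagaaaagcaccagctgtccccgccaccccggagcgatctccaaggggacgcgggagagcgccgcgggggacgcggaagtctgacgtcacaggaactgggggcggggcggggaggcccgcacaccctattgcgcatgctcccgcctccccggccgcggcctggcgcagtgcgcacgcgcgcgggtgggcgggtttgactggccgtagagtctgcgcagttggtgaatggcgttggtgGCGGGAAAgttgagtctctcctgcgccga
FANCD2, chr3:10026187-10026486, forward strand, match from 2 bases before the start: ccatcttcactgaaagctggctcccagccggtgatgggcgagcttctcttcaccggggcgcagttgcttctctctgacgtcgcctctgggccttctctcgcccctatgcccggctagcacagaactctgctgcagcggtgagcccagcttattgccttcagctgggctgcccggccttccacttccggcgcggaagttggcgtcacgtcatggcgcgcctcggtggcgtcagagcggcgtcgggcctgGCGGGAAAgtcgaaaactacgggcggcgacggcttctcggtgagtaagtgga
FANCA, chr16:89816598-89816897, reverse strand, match from 172 bases before the start: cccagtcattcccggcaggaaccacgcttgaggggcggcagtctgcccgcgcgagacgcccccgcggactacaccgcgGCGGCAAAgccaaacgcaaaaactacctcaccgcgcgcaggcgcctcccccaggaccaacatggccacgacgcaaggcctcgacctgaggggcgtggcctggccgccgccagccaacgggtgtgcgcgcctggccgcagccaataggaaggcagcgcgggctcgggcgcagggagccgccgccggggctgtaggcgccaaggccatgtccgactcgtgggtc
EXO1, chr1:241847954-241848253, forward strand, match from base 5 after the start: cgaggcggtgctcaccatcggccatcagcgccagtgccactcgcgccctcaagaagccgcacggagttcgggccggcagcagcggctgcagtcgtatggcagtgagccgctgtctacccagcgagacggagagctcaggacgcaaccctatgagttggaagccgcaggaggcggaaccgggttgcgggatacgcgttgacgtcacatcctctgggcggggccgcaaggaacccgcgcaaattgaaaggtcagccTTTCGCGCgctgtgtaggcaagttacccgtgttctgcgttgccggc

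Each comparison was tested across all genes with edgeR's quasi-likelihood test, and a gene is called at a Benjamini-Hochberg adjusted p below 0.1 over all genes tested. The study's own limit adds a fold change beyond 2 in either direction and a mean normalized count above 10 to this, and is named the 2-fold rule here. Normalized counts are counts scaled to a common effective library size, log2 fold changes are given with their standard error (SE), and every adjusted p is edgeR's unless another tool is named. All 40 members passed the filter on low counts in every comparison. Gene positions are those of GENCODE release 44 on hg38, and every member is a protein-coding gene. The comparisons share libraries, since the DMSO libraries of each line serve both as the base of its olaparib effect and in the comparison of the lines.

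Without olaparib, UWB1.289 and OVCAR3 differed in most of the members, in both directions. UWB1.289 held more RNA of CHEK1, PALB2, BRCA2, FANCA and FANCI, each by more than 2-fold, and less of TP53BP1, FANCF and RAD50 by more than 2-fold. The RAD50 difference came from few counts and overlapping libraries. In all, 16 members (40%) were higher and 16 (40%) lower in UWB1.289, where 39.8% of the 13366 genes tested were higher and 40.1% lower, so that the share of members called was that of all genes. By the 2-fold rule 8 members were called, against 38.4% of all genes, and the 4 libraries of one line lay wholly above those of the other in 27 members (67.5%) against 69.4% of all genes. The median log2 fold change was 0.06 for the members and -0.02 for all genes. FANCE, XRCC3, NBN, FANCM, RAD51B, SLX4, DNA2 and MUS81 were not called.

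**Figure D1:**
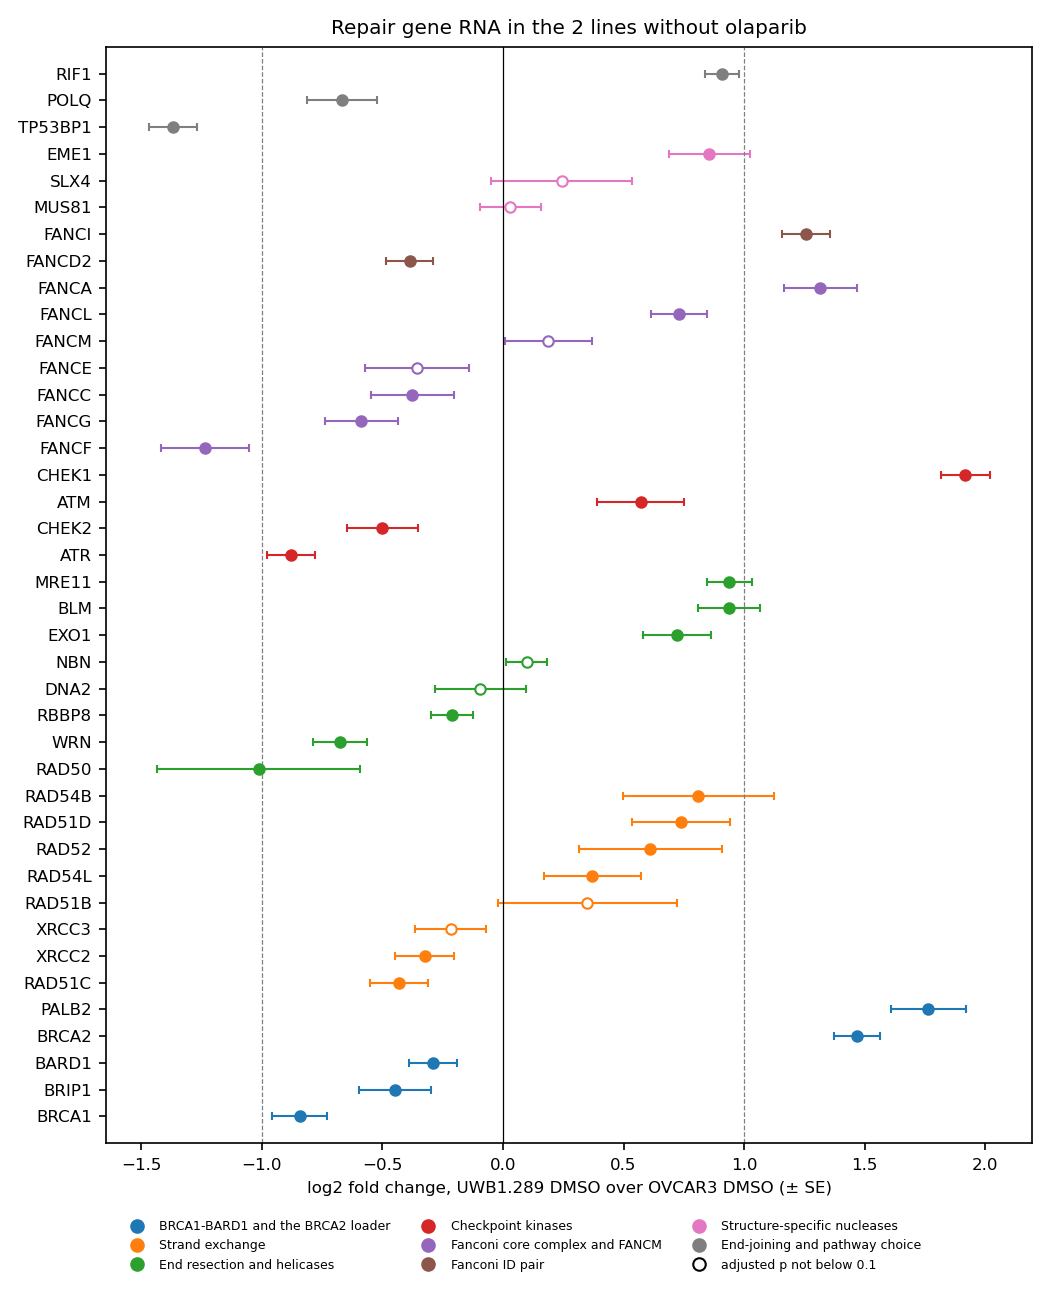
Log2 fold change of each of the 40 members between the DMSO libraries of UWB1.289 and OVCAR3 (x axis, positive where UWB1.289 is higher), grouped and coloured by role on the y axis. Points are edgeR estimates from 4 against 4 libraries, bars are SE, open points did not pass an adjusted p of 0.1 and dashed lines mark a 2-fold change. CHEK1 lies farthest to the right at 1.92 and TP53BP1 farthest to the left at -1.37.

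In OVCAR3, olaparib raised RNA of 9 members, namely XRCC2, CHEK1, FANCD2, BRIP1, BRCA2, POLQ, FANCI, BLM and RIF1, and lowered that of FANCF and MRE11. These are 22.5% and 5% of the 40, against 15.5% of the 13031 genes tested called higher and 16% called lower. No member passed the 2-fold rule (5.23% of all genes did), and the log2 fold changes of the called members lay between -0.47 and 0.64. At an unadjusted p below 0.05 there were 13 higher and 2 lower members, where 17.6% of all genes were higher and 18.2% lower. The fold change was positive in 30 members and negative in 10, with a median of 0.19, while the median of all genes was -0.01. DMSO and olaparib libraries did not overlap in 8 members (20%), 6 of them higher and 2 lower, against 25.7% of all genes. In RNA of bulk cultures, a different share of cells in a cell cycle phase and a different amount of RNA per cell cannot be told apart.

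Fewer members were called in UWB1.289 than in OVCAR3, and fewer of all genes tested were called as well. FANCI, FANCL, EXO1 and FANCG fell (10% of the 40) and RAD51B and XRCC3 rose (5%), where 6.10% of the 12748 genes tested were called lower and 7.77% higher. No member passed the 2-fold rule, which 2.21% of all genes passed. At an unadjusted p below 0.05 there were 3 higher and 7 lower members, where 12.4% of all genes were higher and 10.7% lower. With the replicate number as a block 3 members were called higher and 6 lower, which adds XRCC2, ATM and EME1, and 9.95% of all genes were called higher and 8.71% lower. The fold change was negative in 29 members and positive in 11, with a median of -0.08 against -0.00436 for all genes. The libraries of the 2 groups did not overlap in 5 members (12.5%), against 14.7% of all genes.

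The difference between the 2 olaparib effects, the change in UWB1.289 minus that in OVCAR3, was tested as an interaction over all 16 libraries. It passed in 8 members, which are FANCI, FANCD2, FANCG, BLM, BRIP1, CHEK1, FANCA and EME1, and in each of them the change was lower in UWB1.289 than in OVCAR3. These are 20% of the members, against 5.83% of the 14243 genes tested called lower in UWB1.289, and no member was among the 5.09% called higher. At an unadjusted p below 0.05 there were 12 lower and 0 higher members, where 10.7% of all genes were lower and 10.2% higher. DESeq2 also called 8 members, and the share of all genes it called was not computed. None passed the 2-fold rule, which 3.66% of all genes passed. The difference was negative in 32 members (80%), with a median of -0.23. Of the 14243 genes tested it was negative in 6942, with a median of 0.01. A rise in OVCAR3 together with a fall in UWB1.289, whatever the test of each, was seen in 20 members (50%) and in 19.9% of the 11670 genes tested in both lines.

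**Figure D2:**
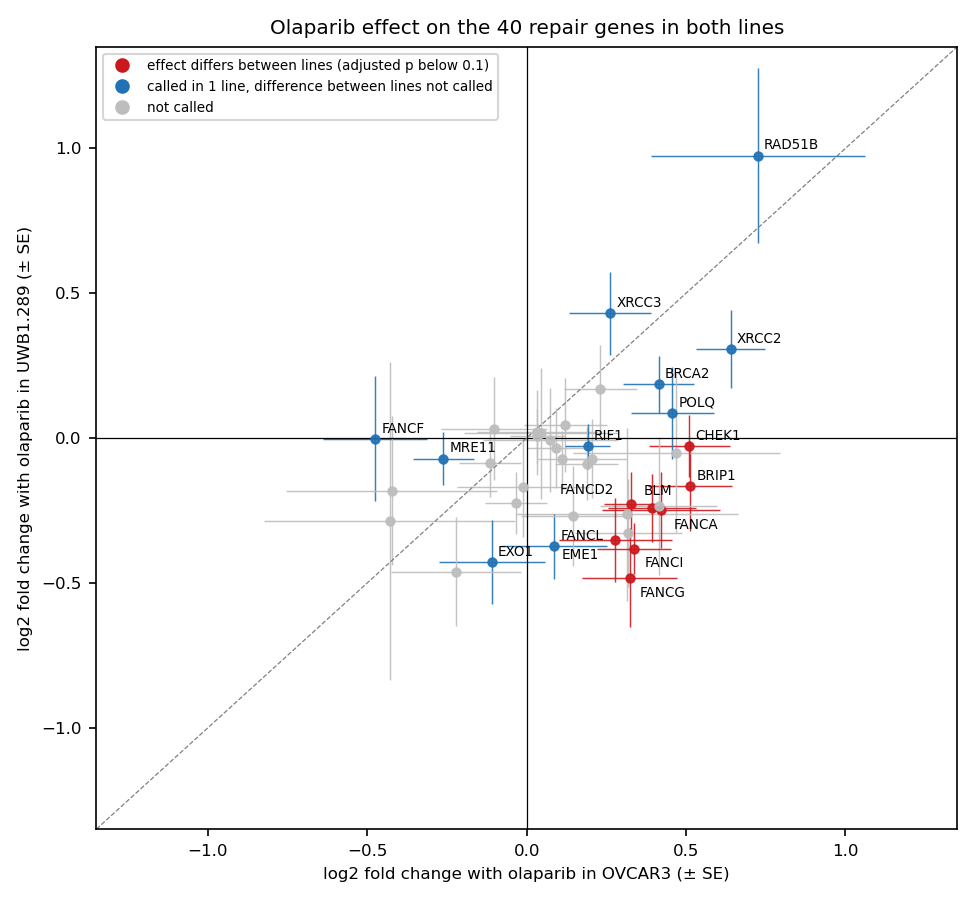
Olaparib effect on the 40 members as log2 fold changes in OVCAR3 (x axis) and UWB1.289 (y axis), with SE bars. Red points are the 8 members whose effect differed between the lines, blue points those called in 1 line only without a called difference and grey points the rest. All 8 red points lie right of 0 and below the diagonal of equal effects.

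The BRCA1 group comes first. UWB1.289 carries the mutated BRCA1 gene, and a count at the 3' end of its RNA does not show the mutation. BRCA1 (chromosome 17, 43044295 to 43170245, reverse strand) normalized counts were 275, 262, 332 and 267 in the OVCAR3 DMSO libraries and 148.5, 138.5, 162.5 and 184 in the UWB1.289 DMSO libraries. Every UWB1.289 library lay below every OVCAR3 library, with a log2 fold change of -0.84 (SE 0.115, adjusted p = 1.25e-07). With olaparib the values were 318, 328, 308 and 338 in OVCAR3 and 139, 141, 153 and 163 in UWB1.289. Both overlapped their controls, and the changes of 0.19 (SE 0.1, adjusted p = 0.188) and -0.09 (SE 0.125, adjusted p = 0.73) were not called. Without OVCAR3 DMSO replicate 3, the highest control, the change in OVCAR3 was 0.27 and was called (adjusted p = 0.074). The 95% interval of the difference between the lines was -0.60 to 0.05.

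BARD1, the partner that BRCA1 needs as a ubiquitin ligase, had 329, 277, 289 and 319.7 in OVCAR3 with DMSO and 240.4, 227, 259.8 and 268 in UWB1.289 with DMSO. UWB1.289 was lower in all 4 libraries, with a log2 fold change of -0.29 (SE 0.0992, adjusted p = 0.00977). The olaparib libraries held 300.1, 297, 272 and 313.5 in OVCAR3 and 199, 229.5, 219 and 204 in UWB1.289, and neither the change of -0.03 (SE 0.0974, adjusted p = 0.838) nor that of -0.22 (SE 0.107, adjusted p = 0.211) was called. PALB2 (chromosome 16, 23603160 to 23641321, reverse strand), which links BRCA1 to BRCA2, differed far more between the lines. Its DMSO values were 45, 48.8, 45.98 and 61.3 in OVCAR3 and 149.5, 176, 157 and 203 in UWB1.289, a 3.39-fold difference with a log2 fold change of 1.76 (SE 0.156, adjusted p = 1.85e-11). With olaparib it had 48.3, 45.5, 59.05 and 52.4 in OVCAR3 and 119.9, 190.3, 186 and 199 in UWB1.289, where replicate 1 stood below the rest. Olaparib changed PALB2 by 0.03 (SE 0.189, adjusted p = 0.927) and 0.02 (SE 0.148, adjusted p = 0.957), with 95% intervals of -0.36 to 0.43 and -0.29 to 0.33.

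BRCA2 (chromosome 13, 32315086 to 32400268, forward strand), which acts at resected ends together with PALB2, had DMSO values of 260.3, 212, 229 and 208 in OVCAR3 and 591, 588, 618 and 717 in UWB1.289. The lines were 2.76-fold apart, with a log2 fold change of 1.47 (SE 0.0952, adjusted p = 1.49e-14) and no overlap. In OVCAR3 olaparib raised it to 325, 315, 252 and 317, a log2 fold change of 0.41 (SE 0.111, adjusted p = 0.00979). Replicate 3 of the olaparib group, at 252, lay below the highest control at 260.3. In UWB1.289 it was 671, 631, 717.5 and 834 with olaparib, and the change of 0.18 (SE 0.0975, adjusted p = 0.267) was not called. BRIP1 (chromosome 17, 61679139 to 61863559, reverse strand), a helicase bound to BRCA1, rose with olaparib in OVCAR3. It had 132, 126, 120.1 and 167 with DMSO and 162, 207, 200.2 and 207 with olaparib there, a rise of 0.51 (SE 0.132, adjusted p = 0.00727) in which olaparib replicate 1 lay below DMSO replicate 4. In UWB1.289 the values were 109, 78.96, 114 and 98.4 with DMSO and 105, 77.3, 83.2 and 91.4 with olaparib, with a change of -0.17 (SE 0.156, adjusted p = 0.573). The effect differed between the lines by -0.68 (SE 0.204, adjusted p = 0.0388). Without olaparib UWB1.289 held less BRIP1, with a log2 fold change of -0.45 (SE 0.148, adjusted p = 0.0076).

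Among the genes of strand exchange, XRCC2 had the lowest adjusted p of all members in OVCAR3 with olaparib. XRCC2 (chromosome 7, 152644776 to 152676193, reverse strand) belongs to the paralog complex with RAD51B, RAD51C and RAD51D, and its promoter is the first of the windows printed here. Its values in OVCAR3 were 217.5, 161, 214 and 202 with DMSO and 291, 312, 306 and 328 with olaparib. All treated libraries lay above all controls, with a log2 fold change of 0.64 (SE 0.109, adjusted p = 0.000208), or 1.56-fold. In UWB1.289 it had 154, 142, 177 and 163.5 with DMSO and 217, 154.5, 237 and 177 with olaparib, where replicates 1 and 3 were high and replicates 2 and 4 overlapped the controls. That change of 0.31 (SE 0.135, adjusted p = 0.168) was not called, but with the replicate number as a block, taken for UWB1.289 because each of its pairs correlated above 0.1, it was 0.30 (adjusted p = 0.0960). The difference between the lines was -0.33 (SE 0.177, adjusted p = 0.29), with a 95% interval of -0.69 to 0.03. At baseline UWB1.289 was lower, with a log2 fold change of -0.32 (SE 0.122, adjusted p = 0.0173), and the lines overlapped.

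RAD51B had the highest log2 fold change with olaparib among the members in both lines, from few counts. Its raw counts lay between 8 and 21 in the DMSO libraries of both lines. The normalized counts in UWB1.289 were 13.7, 14.1, 8.28 and 17.98 with DMSO and 28.9, 29.98, 24.9 and 23.8 with olaparib. All treated libraries were higher, by 0.98 (SE 0.302, adjusted p = 0.0446), and without DMSO replicate 3 the change was 0.81 and not called (adjusted p = 0.123). In OVCAR3 the values were 15, 9.08, 11.3 and 7.43 with DMSO and 19.1, 14.2, 18.4 and 18.6 with olaparib, and the change of 0.72 (SE 0.335, adjusted p = 0.126) was not called. XRCC3, which pairs with RAD51C, also rose in UWB1.289. It had 87.95, 112.5, 94.2 and 125 with DMSO and 169, 138, 130.0 and 129 with olaparib, without overlap and with a change of 0.43 (SE 0.144, adjusted p = 0.0633). The call was lost without DMSO replicate 1, DMSO replicate 3 or olaparib replicate 1 (adjusted p 0.144 to 0.183). In OVCAR3 XRCC3 was 117, 145, 112 and 115 and 137, 143, 151 and 152, a change of 0.26 (SE 0.127, adjusted p = 0.147).

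RAD51C and RAD51D differed between the lines and were not called with olaparib. RAD51C had 177, 195, 206.5 and 186 in OVCAR3 and 144, 158, 148 and 121 in UWB1.289 with DMSO, lower in UWB1.289 with a log2 fold change of -0.43 (SE 0.121, adjusted p = 0.00201). RAD51D had 43.9, 56.7, 29.1 and 48.3 and 84.04, 63.8, 62.1 and 84.7, higher in UWB1.289 by 0.74 (SE 0.204, adjusted p = 0.00179). Neither gene's libraries overlapped between the lines. With olaparib RAD51C changed by 0.20 in OVCAR3 (adjusted p = 0.196) and with a log2 fold change of -0.07 in UWB1.289 (adjusted p = 0.813), and RAD51D by 0.07 and -0.01 (adjusted p = 0.842 and 0.989).

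RAD52, an annealing protein, and the RAD54 translocases RAD54L and RAD54B were counted at low levels, which widens their errors. RAD54B lay at 11.8 to 15.9 in OVCAR3 and 16.6 to 35.1 in UWB1.289 with DMSO, with a line difference of 0.81 (SE 0.313, adjusted p = 0.0207) and no overlap. RAD52 lay at 14.8 to 20.6 and 20.5 to 33.4, a difference of 0.61 (SE 0.296, adjusted p = 0.0628) that 5 of the 8 fits without 1 library did not call. RAD54L lay at 43.7 to 62.4 and 44.5 to 81.1, and its difference of 0.37 (SE 0.201, adjusted p = 0.0958) was lost in 6 of those 8 fits and with DESeq2 (adjusted p = 0.118). Without OVCAR3 DMSO replicate 4, the adjusted p was 0.109 for RAD52 and 0.232 for RAD54L. None of the 3 was called with olaparib, and their log2 changes lay between 0.04 and 0.47 in OVCAR3 and between -0.26 and 0.02 in UWB1.289.

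End resection genes showed no common direction. MRE11, the nuclease that starts resection, had 391, 313, 347 and 362.5 in OVCAR3 and 576.5, 682.5, 771 and 688 in UWB1.289 with DMSO. It was 1.92-fold higher in UWB1.289, with a log2 fold change of 0.94 (SE 0.0927, adjusted p = 2.08e-10). In OVCAR3 olaparib lowered it to 285, 311, 277 and 305, below every control, a change of -0.26 (SE 0.0965, adjusted p = 0.0542). This call was lost without DMSO replicate 1 or 4 or olaparib replicate 1 or 3 (adjusted p 0.113 to 0.165), and with no filter on low counts (adjusted p = 0.106). In UWB1.289 it was 679.6, 595, 651 and 656 with olaparib, and the change of -0.07 (SE 0.0925, adjusted p = 0.703) was not called. RAD50, which binds MRE11, was close to the detection limit.

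RAD50 had normalized counts of 26.8, 18.2, 22.5 and 19.5 in OVCAR3 and 5.86, 16.2, 20.7 and 1.71 in UWB1.289 with DMSO. The olaparib libraries held 3.02, 15.2, 26.8 and 18.6 and 10.7, 13.8, 3.12 and 7.94, and raw counts of single libraries went down to 2. The line difference of -1.01 (SE 0.419, adjusted p = 0.03) came with overlapping libraries, and without UWB1.289 DMSO replicate 1 it was -0.79 (adjusted p = 0.105) and without replicate 4 -0.60 (adjusted p = 0.158). RAD50 shares its 3' end with an overlapping transcript model on the same strand. The rows were searched by gene symbol, and none was named by the identifier of that model. Whether the model was counted under another name cannot be told from this. NBN, the remaining member of that complex, had 401 to 455 in OVCAR3 and 427 to 485 in UWB1.289, and no comparison of it was called. Its 95% interval was -0.08 to 0.27 for the lines, -0.15 to 0.21 for olaparib in OVCAR3 and -0.19 to 0.20 in UWB1.289.

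RBBP8 (CtIP), which activates MRE11, was slightly lower in UWB1.289, with 395 to 510.2 against 515 to 551 in OVCAR3 and a log2 fold change of -0.21 (SE 0.0863, adjusted p = 0.0274). Without UWB1.289 DMSO replicate 1 the difference was -0.13 (adjusted p = 0.18). Olaparib changed RBBP8 by 0.11 in OVCAR3 and -0.07 in UWB1.289, neither of them called. EXO1, the exonuclease of long-range resection, was higher in UWB1.289 and fell there with olaparib. It had 135, 119, 151 and 139.5 with DMSO and 82.4, 89.95, 110.2 and 120.2 with olaparib in UWB1.289, a change of -0.43 (SE 0.144, adjusted p = 0.066). Olaparib replicate 4 lay above the lowest control. The call was lost without DMSO replicate 1, 3 or 4 or olaparib replicate 1 or 2 (adjusted p 0.117 to 0.155). In OVCAR3 EXO1 had 93.2, 74.9, 85.4 and 76.2 with DMSO and 64.5, 63.7, 83.04 and 92.4 with olaparib, a change of -0.11 (SE 0.166, adjusted p = 0.683). The line difference was 0.72 (SE 0.142, adjusted p = 4.14e-05).

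BLM (chromosome 15, 90717346 to 90816166, forward strand), a helicase that acts in resection and dissolves joined molecules, rose in OVCAR3 and had a different effect in UWB1.289. In OVCAR3 it had 119, 126, 123 and 92.01 with DMSO and 163, 146, 128 and 164 with olaparib, without overlap and with a rise of 0.39 (SE 0.138, adjusted p = 0.043). In UWB1.289 it had 219.9, 196, 214 and 248 and 179.8, 169.5, 218 and 175, with a change of -0.24 (SE 0.119, adjusted p = 0.229) that was not called. The difference between the effects was -0.63 (SE 0.18, adjusted p = 0.0274). The rise in OVCAR3 was 0.30 without DMSO replicate 4 (adjusted p = 0.152) and 0.35 without olaparib replicate 1 (adjusted p = 0.112), and neither was called. At baseline BLM was 1.91-fold higher in UWB1.289, with a log2 fold change of 0.94 (SE 0.127, adjusted p = 1.02e-07). The related helicase WRN had 289, 228, 253 and 236 in OVCAR3 and 152, 175, 152 and 152 in UWB1.289 with DMSO, lower in UWB1.289 with a log2 fold change of -0.68 (SE 0.112, adjusted p = 3.38e-06) and not called with olaparib (0.23 and 0.17). DNA2, a nuclease that works with both helicases, was not called with all libraries in any comparison. Its interaction of -0.64 (SE 0.247, adjusted p = 0.117), with changes of 0.32 in OVCAR3 and -0.33 in UWB1.289, missed the threshold.

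The checkpoint kinases held the largest line difference among the members. CHEK1 (chromosome 11, 125625163 to 125676255, forward strand), the kinase that ATR activates at stalled forks, had 120.0, 123, 146 and 140.3 in OVCAR3 and 451.5, 539, 514 and 508 in UWB1.289 with DMSO. UWB1.289 was 3.78-fold higher, with a log2 fold change of 1.92 (SE 0.102, adjusted p = 1.20e-16). With olaparib CHEK1 rose in OVCAR3 to 164, 198, 173.5 and 218, above every control and by 0.51 (SE 0.127, adjusted p = 0.0058). In UWB1.289 it was 389.6, 491, 556 and 531 with olaparib, with replicate 1 below the rest and a change of -0.03 (SE 0.106, adjusted p = 0.915). The effects differed by -0.54 (SE 0.164, adjusted p = 0.0413). Even after the rise the highest OVCAR3 library, at 218, lay below the lowest UWB1.289 library, at 389.6.

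ATR, the kinase upstream of CHEK1, ran the other way between the lines, with 433, 354, 462 and 416 in OVCAR3 and 224, 213, 221.5 and 248 in UWB1.289 and a log2 fold change of -0.88 (SE 0.0988, adjusted p = 2.90e-09). CHEK2 had 99.6, 128, 134 and 121 and 83.1, 95.2, 73.5 and 90.7, lower in UWB1.289 with a log2 fold change of -0.50 (SE 0.148, adjusted p = 0.00331). ATM, the kinase that activates CHEK2 at double-strand breaks, had 122, 86.2, 65.7 and 79 in OVCAR3 and 134, 175, 95.2 and 119.8 in UWB1.289, higher in UWB1.289 by 0.57 (SE 0.179, adjusted p = 0.00521) with overlapping libraries. Within each kinase pair, 1 gene was higher and its partner lower in UWB1.289. None of these 3 was called with olaparib, where the changes were 0.09 for ATR, 0.12 for CHEK2 and -0.22 for ATM in OVCAR3. In UWB1.289 ATM had 95.2, 133, 69.7 and 83.4 with olaparib, and its change of -0.46 (SE 0.19, adjusted p = 0.14) was not called, but was called with the replicate number as a block (-0.46, adjusted p = 0.0202). Each UWB1.289 olaparib library held less ATM than the DMSO library of the same number.

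The Fanconi core complex showed opposite line differences among its subunits. FANCA (chromosome 16, 89726683 to 89816977, reverse strand) had 57.9, 60.1, 49.7 and 74.3 in OVCAR3 and 152, 164, 134.5 and 154 in UWB1.289 with DMSO, 2.49-fold higher in UWB1.289 with a log2 fold change of 1.32 (SE 0.152, adjusted p = 5.02e-09). With olaparib it was 87.6, 73.8, 62.7 and 99.5 in OVCAR3 and 141, 106, 116.5 and 144 in UWB1.289. The single changes of 0.42 (SE 0.184, adjusted p = 0.104) and -0.25 (SE 0.132, adjusted p = 0.273) were not called. With the replicate number as a block, the change in OVCAR3 was 0.42 and was called (adjusted p = 0.0668). The difference between the lines of -0.67 (SE 0.224, adjusted p = 0.0674) was called. Of the 16 fits without 1 library, 8 did not call that difference (adjusted p 0.107 to 0.15), namely those without OVCAR3 DMSO replicate 1 or 3, OVCAR3 olaparib replicate 1 or 4, UWB1.289 DMSO replicate 2 or 4, or UWB1.289 olaparib replicate 2 or 3.

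FANCG (chromosome 9, 35073835 to 35080004, reverse strand), which binds FANCA in the complex, had 103, 95.3, 109 and 111.5 in OVCAR3 and 70.4, 69.2, 65.2 and 74.5 in UWB1.289 with DMSO. UWB1.289 was lower, with a log2 fold change of -0.59 (SE 0.151, adjusted p = 0.000887). With olaparib UWB1.289 fell to 55.6, 49.6, 46.8 and 47.7, below every control and with a log2 fold change of -0.48 (SE 0.171, adjusted p = 0.0818). OVCAR3 had 119, 152, 151 and 102, with replicates 2 and 3 high and a change of 0.32 (SE 0.148, adjusted p = 0.122) that was not called. FANCG had the most negative difference between the lines of all members, -0.80 (SE 0.217, adjusted p = 0.0185). The fall in UWB1.289 was not called in 6 of 8 fits without 1 library (adjusted p 0.112 to 0.181, those without DMSO replicate 1, 2 or 4 or olaparib replicate 2, 3 or 4), with DESeq2 (0.124) or with no filter (0.147), whereas the interaction was called in all 16. FANCG overlaps an unnamed transcript model on its own strand.

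FANCL, the ubiquitin ligase of the pathway, fell in UWB1.289 with olaparib from 286, 299.6, 276 and 243 to 195, 209.9, 199 and 246, with a log2 fold change of -0.37 (SE 0.113, adjusted p = 0.0389). Replicate 4 overlapped the controls, and the call was lost without DMSO replicate 2 or olaparib replicate 3 (adjusted p 0.119 and 0.112). In OVCAR3 it had 195, 138.5, 153 and 177 with DMSO and 196, 165, 226 and 116 with olaparib, with a wide spread and a change of 0.09 (SE 0.166, adjusted p = 0.756). The line difference at baseline was 0.73 (SE 0.116, adjusted p = 1.61e-06). FANCF, the adaptor between core proteins, fell in OVCAR3. It had 102, 93.1, 85.4 and 126 with DMSO and 68.5, 62.7, 84.9 and 75.5 with olaparib in OVCAR3, all treated libraries lower and with a change of -0.47 (SE 0.163, adjusted p = 0.0391). Without DMSO replicate 4 or olaparib replicate 2 it was not called (adjusted p 0.162 and 0.118). UWB1.289 held 46.9, 46.5, 34.1 and 45.4 and 35.3, 56.5, 38.5 and 42.7, with a change of -0.00 (SE 0.215, adjusted p = 0.996) and a test of the difference that was not called (0.47 (SE 0.263, adjusted p = 0.316)). With DMSO FANCF was 2.35-fold lower in UWB1.289, a log2 fold change of -1.23 (SE 0.181, adjusted p = 4.37e-07).

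FANCC, FANCE and FANCM were not called with olaparib. FANCC lay at 67.6 to 88.3 in OVCAR3 and 49.8 to 63.8 in UWB1.289 with DMSO, lower in UWB1.289 with a log2 fold change of -0.38 (SE 0.174, adjusted p = 0.0511). That call was lost without UWB1.289 DMSO replicate 1 (adjusted p = 0.163) or OVCAR3 DMSO replicate 4 (0.15) and with no filter (0.106). FANCE, which binds FANCD2, changed by 0.41 (SE 0.183, adjusted p = 0.108) in OVCAR3 and -0.23 (SE 0.238, adjusted p = 0.603) in UWB1.289, with a difference of -0.65 (SE 0.297, adjusted p = 0.206). FANCM, the translocase that recruits the core complex to chromatin, changed by 0.15 and -0.27 (adjusted p = 0.571 and 0.38).

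FANCD2 and FANCI form the clamp that the core complex ubiquitinates, and the effect of olaparib on both differed between the lines. FANCI (chromosome 15, 89243945 to 89317261, forward strand) had 194, 241, 275 and 211 with DMSO and 295, 287, 317 and 260.3 with olaparib in OVCAR3, a rise of 0.34 (SE 0.116, adjusted p = 0.0396) in which olaparib replicate 4 overlapped the controls. In UWB1.289 it had 580.4, 570.0, 509 and 549 with DMSO and 401, 436, 405.5 and 449 with olaparib. There all treated libraries lay below all controls, with a change of -0.38 (SE 0.0891, adjusted p = 0.00741). FANCI was called in both lines, in opposite directions. Without the replicate block no other member was called in both, and with it in UWB1.289 XRCC2 was also called there, upward as in OVCAR3. The difference was -0.72 (SE 0.143, adjusted p = 0.00136), the lowest adjusted p of the members in that test. The rise in OVCAR3 was lost without DMSO replicate 1 or 4 (adjusted p 0.137 and 0.12), the fall in UWB1.289 in none of the 8 fits without 1 library. At baseline FANCI was 2.39-fold higher in UWB1.289, by 1.26 (SE 0.0997, adjusted p = 1.62e-12).

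FANCD2 (chromosome 3, 10026370 to 10101932, forward strand) had 439, 405, 415 and 484 with DMSO and 556, 541, 545 and 539 with olaparib in OVCAR3. The treated libraries lay close together and above every control, with a rise of 0.33 (SE 0.0836, adjusted p = 0.00702). In UWB1.289 it had 309.8, 360.2, 383 and 288.5 and 314, 292, 282 and 255, with overlap and a change of -0.23 (SE 0.11, adjusted p = 0.218) that was not called. The difference between the effects was -0.55 (SE 0.137, adjusted p = 0.0103). Unlike FANCI, FANCD2 was lower in UWB1.289 at baseline, with a log2 fold change of -0.39 (SE 0.0972, adjusted p = 0.000718).

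**Figure D3:**
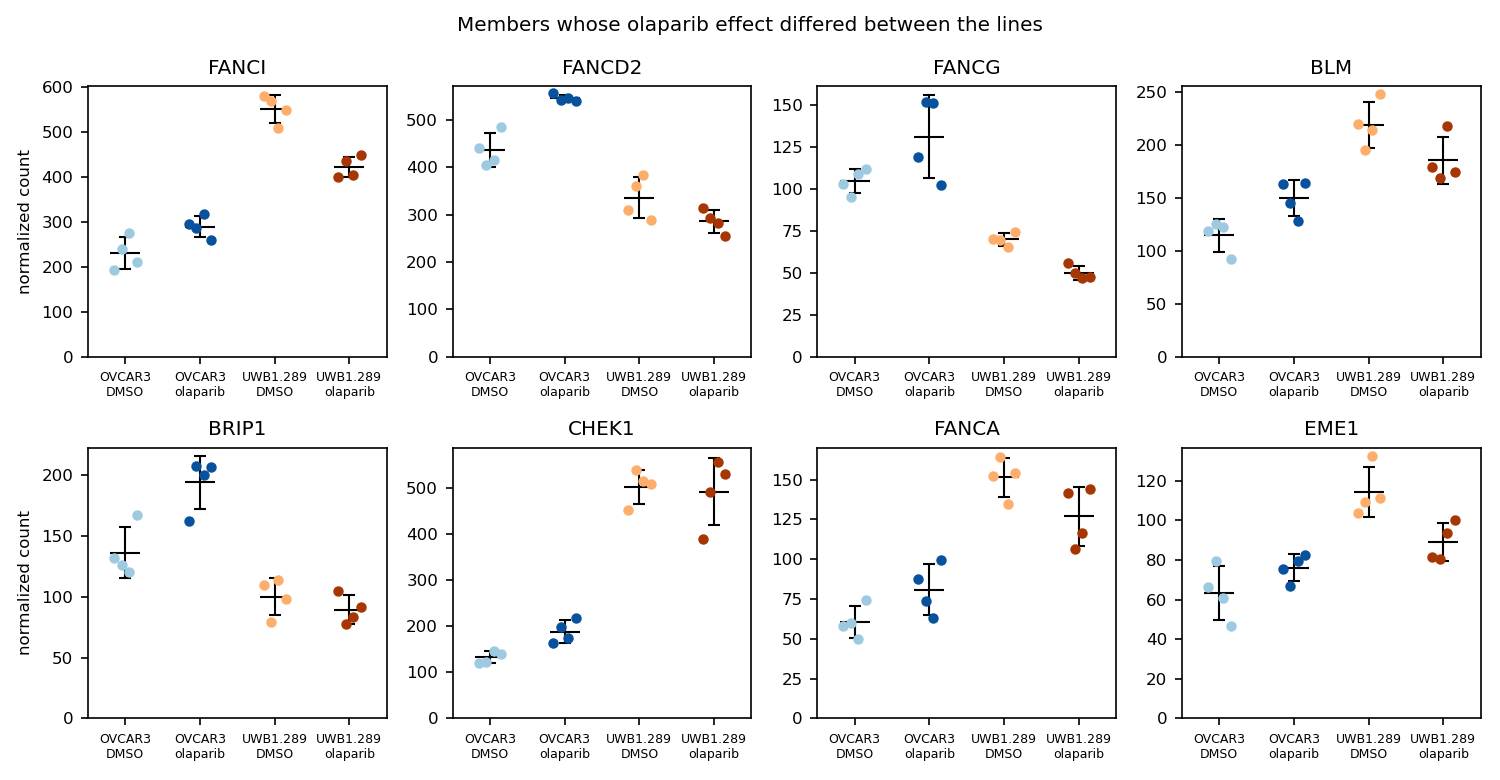
Normalized counts (y axis, from 0) of the 8 members whose olaparib effect differed between the lines, in OVCAR3 and UWB1.289 with DMSO and olaparib (x axis). Points are the 4 libraries of each group, horizontal bars the mean and error bars the SD. FANCI rises from a mean of 230.1 to 290.0 in OVCAR3 and falls from 552 to 423 in UWB1.289, and CHEK1 rises in OVCAR3 from 132 to 188 while its UWB1.289 groups overlap.

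Of the structure-specific nucleases, EME1 (chromosome 17, 50373220 to 50381483, forward strand), the partner of MUS81, had 66.4, 79.4, 61 and 46.5 in OVCAR3 and 104, 109, 132.5 and 111 in UWB1.289 with DMSO. It was higher in UWB1.289 by 0.86 (SE 0.167, adjusted p = 3.54e-05). With olaparib it was 75.5, 66.8, 79.3 and 82.6 in OVCAR3, a change of 0.28 (SE 0.178, adjusted p = 0.279), and 81.3, 80.7, 93.6 and 100.3 in UWB1.289, a change of -0.35 (SE 0.144, adjusted p = 0.137). In UWB1.289 the treated libraries lay below the controls, and the fit with the replicate number as a block called the fall (-0.35, adjusted p = 0.0989). The difference of -0.63 (SE 0.225, adjusted p = 0.0895) was called, but it was lost in 12 of the 16 fits without 1 library (adjusted p 0.107 to 0.183) and with no filter (0.13). It was kept only without UWB1.289 DMSO replicate 1, UWB1.289 olaparib replicate 4, OVCAR3 DMSO replicate 2 or OVCAR3 olaparib replicate 2. With all libraries MUS81 and the scaffold SLX4 were called in no comparison, and MUS81 was called in UWB1.289 with olaparib without olaparib replicate 2. MUS81 lay at 145 to 214 with DMSO and 88.8 to 239.7 with olaparib in OVCAR3 and at 159 to 208 and 114.5 to 250.2 in UWB1.289, and SLX4 at 13.6 to 35.7 and 13.8 to 24.9 and at 23.4 to 37.3 and 21.9 to 35.3. The olaparib libraries of MUS81 were far apart in both lines, and the 95% interval of its change was -0.44 to 0.42 in OVCAR3 and -0.52 to 0.19 in UWB1.289.

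POLQ, the polymerase of end joining at short homologies, had 181, 141, 129.5 and 149 in OVCAR3 and 102, 76.8, 107 and 92.5 in UWB1.289 with DMSO, lower in UWB1.289 with a log2 fold change of -0.67 (SE 0.144, adjusted p = 0.000131). Olaparib raised it in OVCAR3 to 236, 183, 214 and 188, above every control and by 0.46 (SE 0.129, adjusted p = 0.0132). In UWB1.289 it was 102, 76.1, 118.5 and 103, with a change of 0.09 (SE 0.159, adjusted p = 0.801) and a difference between the lines of -0.37 (SE 0.206, adjusted p = 0.318). TP53BP1 (chromosome 15, 43403061 to 43510728, reverse strand) shields ends from resection, and loss of it is known to restore resection in cells without BRCA1. It had 501, 433.5, 479.6 and 559 in OVCAR3 and 173, 189, 185 and 217 in UWB1.289 with DMSO. That was 2.58-fold lower in UWB1.289, with a log2 fold change of -1.37 (SE 0.101, adjusted p = 2.75e-13). With olaparib TP53BP1 changed by -0.12 (SE 0.0971, adjusted p = 0.424) in OVCAR3 and with a log2 fold change of -0.09 (SE 0.116, adjusted p = 0.709) in UWB1.289.

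RIF1, which acts downstream of TP53BP1, was higher in UWB1.289 instead, with 2383, 2644, 2443 and 2746 against 1447, 1416, 1273 and 1295 in OVCAR3 and a log2 fold change of 0.91 (SE 0.0704, adjusted p = 9.27e-13). In OVCAR3 olaparib brought it to 1539, 1599, 1505 and 1541, a small rise of 0.19 (SE 0.0716, adjusted p = 0.058) without overlap. It was not called without DMSO replicate 3 or 4 or olaparib replicate 2 (adjusted p 0.148 to 0.18) or with no filter (0.131). In UWB1.289 RIF1 was 2440, 2289, 2612 and 2657, a change of -0.03 (SE 0.0777, adjusted p = 0.877).

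**Figure D4:**
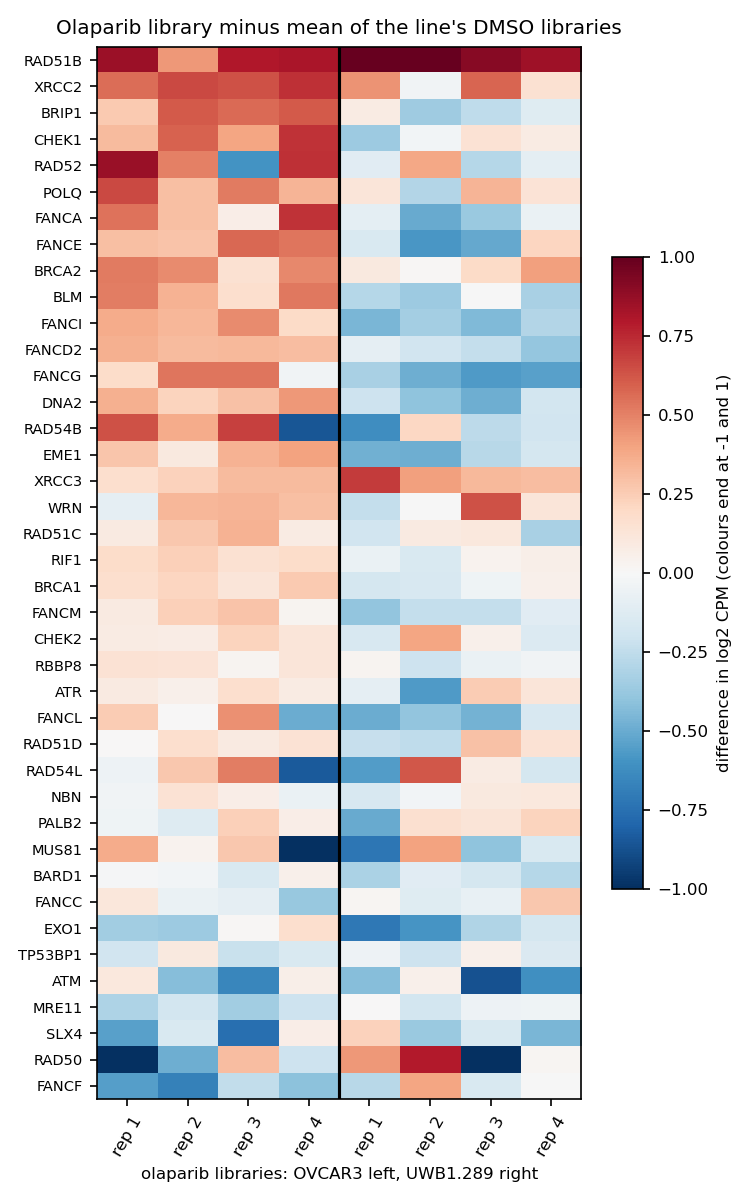
Log2 CPM of each olaparib library minus the mean of the DMSO libraries of the same line, for the 40 members in rows, ordered by the change in OVCAR3, with the 4 OVCAR3 libraries on the left and the 4 UWB1.289 libraries on the right. Red is higher and blue lower, and the colours end at -1 and 1. In OVCAR3 22 members are above the DMSO mean in all 4 libraries and 2 below, and in UWB1.289 3 are above and 11 below. The share of all genes with this pattern was not computed, and a mean leaves out the spread of the DMSO libraries. Olaparib and DMSO libraries did not overlap in 20% of members and 25.7% of all genes in OVCAR3, and in 12.5% and 14.7% in UWB1.289.

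Leaving out a single library moved the counts of calls, and the share of all genes called was not computed for these fits. In OVCAR3, 7 members were called without DMSO replicate 4, which loses BLM, FANCF, FANCI, MRE11 and RIF1 and gains FANCA, against 11 with all libraries. FANCA missed the threshold in the main fit with all libraries (adjusted p = 0.104). XRCC2, CHEK1, FANCD2, BRIP1, BRCA2 and POLQ were called in every one of the 8 fits without 1 library. In UWB1.289, where 6 were called, 3 remained without DMSO replicate 1 (FANCI, FANCL and RAD51B) and 4 were called without DMSO replicate 2, 3 or 4 or olaparib replicate 1 or 3. For the difference between the lines FANCI, FANCD2, FANCG, BLM, BRIP1 and CHEK1 were called in every one of the 16 fits. Members called in 1 to 3 fits without a library but not with all of them were RAD51B, WRN, FANCE, XRCC3, DNA2, BRCA1, RAD52, FANCG and FANCA in OVCAR3, XRCC2, ATM and MUS81 in UWB1.289, FANCE and XRCC3 between the lines, and FANCE, DNA2 and FANCL in the interaction.

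Other genes of the same pathways were called in both directions. The list of 61 other recombination and Fanconi genes holds, among others, the RPA subunits, the cofactors of BRCA1 and the shieldin subunits. In OVCAR3 11 of the 56 tested rose (19.6%) and 3 fell (5.36%) with olaparib, against 15.5% and 16% of all genes. Their median was 0.11 beside 0.19 for the members. In UWB1.289 0 of 57 rose and 2 fell (3.51%), with a median of -0.10, against 7.77% and 6.10% of all genes. For the difference between the lines 1 of 58 was called higher (1.72%) and 4 lower (6.90%), against 5.09% and 5.83%. Between the lines 24 of 58 were higher in UWB1.289 (41.4%) and 18 lower (31%), against 39.8% and 40.1% of all genes. RPA1 (1.19), RPA2 (1.06), SWI5 (1.25), MCM8 (1.32), ERCC1 (1.59), BABAM2 (1.52), SHLD1 (1.70) and ETAA1 were higher by more than 2-fold. TOP3A (-1.59), CENPS (-1.60), WDR48 (-1.08), TOPBP1 (-1.26), SHLD2 (-1.36) and SHLD3 (-1.09) were lower. ETAA1, an activator of ATR, had 0 counts in each OVCAR3 DMSO library and 78 to 106 in the UWB1.289 DMSO libraries.

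The 13 genes listed under non-homologous end joining gave 2 higher (15.4%) and 1 lower (7.69%) in OVCAR3 with olaparib, against 15.5% and 16% of all genes. In UWB1.289 0 were higher and 2 lower (15.4%), against 7.77% and 6.10%, and 1 was lower for the difference (7.69% against 5.83%). Between the lines 6 were higher (46.2%) and 5 lower (38.5%) in UWB1.289, against 39.8% and 40.1% of all genes. DCLRE1C (1.15) and XRCC1 (1.05) were higher and NHEJ1 (-1.94) and POLL (-1.29) lower by more than 2-fold. XRCC1, though on this list, encodes a scaffold protein of single-strand break repair. PARP1, a target of olaparib, was called in none of the 4 comparisons, with changes of 0.09 in OVCAR3 (adjusted p = 0.374) and -0.01 in UWB1.289 (adjusted p = 0.953).

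The median change of S phase genes had the sign of the members' median in both lines, and that of G2 and mitosis genes in OVCAR3 but not in UWB1.289. Of 30 genes of S phase and its entry, 12 rose (40%) and 0 fell in OVCAR3 with olaparib (median 0.19), against 15.5% and 16% of all genes. In UWB1.289 0 rose and 13 fell (43.3%, median -0.26), against 7.77% and 6.10%. The difference was called lower in UWB1.289 in 15 of them (50%, against 5.83% of all genes), with a median of -0.47. CCNE1 (cyclin E) rose by 0.96 in OVCAR3 (adjusted p = 7.54e-08) and changed by 0.11 in UWB1.289 (adjusted p = 0.550). E2F1 changed by 0.24 in OVCAR3 (adjusted p = 0.149) and fell by 0.42 in UWB1.289 (adjusted p = 0.0560), and PCNA changed by 0.09 (adjusted p = 0.669) and fell by 0.37 (adjusted p = 0.00661). The largest difference between the effects in this list was that of CDT1, at -1.03 (adjusted p = 1.44e-05).

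Of 30 genes of G2 and mitosis, 18 rose (60%) and 0 fell in OVCAR3 (median 0.24), against 15.5% and 16% of all genes. In UWB1.289 1 of 29 rose (3.45%) and 0 fell (median 0.04), against 7.77% and 6.10%. In OVCAR3 CDK1 rose by 0.51 (adjusted p = 3.00e-05), TOP2A by 0.31 (adjusted p = 0.00196) and MKI67 by 0.25 (adjusted p = 0.0238), while CCNA2 changed by -0.04 (adjusted p = 0.834). None of these 4 was called in UWB1.289. The difference was called lower in UWB1.289 in 6 of the 30 (20%, against 5.83% of all genes), CDK1 among them (-0.48, adjusted p = 0.00707). Between the lines without olaparib, 16 S phase genes were higher and 9 lower in UWB1.289, and 16 of 29 G2 and mitosis genes higher and 6 lower. These are 53.3% and 30%, and 55.2% and 20.7%, against 39.8% and 40.1% of all genes. By more than 2-fold PCNA, CDT1, RFC2, RFC4, SLBP, PLK1, AURKB, BUB1, CDC20 and HMMR were higher, and TK1 and CHAF1B lower. The part of the cell cycle genes in the changes of the members was not tested.

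**Figure D5:**
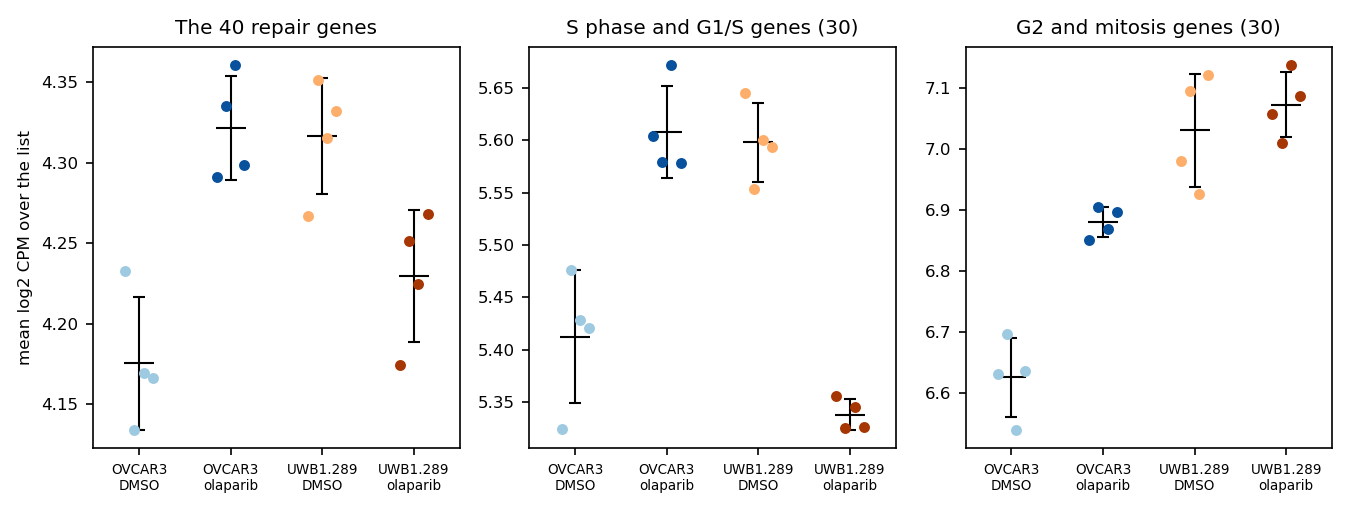
Mean log2 CPM over the 40 members, the 30 genes of S phase and its entry and the 30 genes of G2 and mitosis (y axes, each with its own range that does not start at 0) in each of the 4 groups (x axis). Points are libraries, horizontal bars means and error bars SD over 4 libraries. The members lie at 4.13 to 4.23 in OVCAR3 with DMSO and 4.29 to 4.36 with olaparib, and at 4.27 to 4.35 and 4.17 to 4.27 in UWB1.289, and the S phase genes of UWB1.289 at 5.55 to 5.65 with DMSO and 5.33 to 5.36 with olaparib.

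Of 20 genes of the p53 and DNA damage response, 10 rose (50%) and 3 fell (15%) in OVCAR3 with olaparib, against 15.5% and 16% of all genes. CDKN1A (1.44), PLK3 (1.18) and FAS (1.93) were up by more than 2-fold. In UWB1.289 7 of 19 rose (36.8%) and 3 fell (15.8%), against 7.77% and 6.10% of all genes, with CDKN1A (1.07) and GADD45A (1.14) up and BTG2 (-1.05) down. Between the lines 9 were higher (45%) and 10 lower (50%) in UWB1.289, against 39.8% and 40.1% of all genes. GADD45A, GADD45B, SESN2, ZMAT3, PLK3, FAS and AEN were higher and CDKN1A, FDXR, TP53INP1, TNFRSF10B and PHLDA3 lower by more than 2-fold. The olaparib effect was lower in UWB1.289 for FAS (-1.78) and BTG2 (-1.68) and higher for PHLDA3 (1.37), each called.

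Some members end close to another gene, and how the authors' counting treated strand and shared reads is not stated in the sources used here. Without strand, reads from such genes cannot be told apart. POLG runs against the last 1000 bases of FANCI, was also higher in UWB1.289 (1.21) and rose in OVCAR3 with olaparib (0.38, adjusted p = 0.0723), but changed by -0.01 in UWB1.289, where FANCI fell. TUBGCP4 beside TP53BP1 was lower in UWB1.289 (-1.01), and VRK2 beside FANCL higher (1.08). LRRC59 beside EME1 rose in OVCAR3 (0.57, adjusted p = 2.92e-05) and its effect differed between the lines in the direction of EME1 (-0.59, adjusted p = 0.000925). EFEMP2 beside MUS81 was higher in UWB1.289 (3.29), OSGIN2 beside NBN rose in OVCAR3 with olaparib (0.53, adjusted p = 0.00309), and LRRC41 beside RAD54L was higher in UWB1.289 (0.29, adjusted p = 0.0401). ZNF276 beside FANCA was not called in any of the 4 comparisons, and NEB beside RIF1 had 0 to 35 counts.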

How the data were processed

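RNA of OVCAR3 and UWB1.289 cells was measured in 16 QuantSeq 3' libraries, with 4 replicates in each of 4 groups. The authors trimmed the reads with BBDuk, processed them as single-end reads, aligned them to hg38 with STAR 2.7.9a and counted them per gene with featureCounts 2.0.0 and GENCODE annotation. The deposited table holds raw counts per gene and had not been normalized. How strand and multiply mapped reads were treated is not given in the sources used here. Depth was 5599571 to 7730228 counts per library, so that genes with few counts carry large counting errors, and intervals cover the spread between these libraries.

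Groups were taken from the sample labels. Tests used edgeR 4.0.16 under R 4.3.3. Low counts were removed with filterByExpr, libraries were scaled by TMM, and p-values of the quasi-likelihood F test were adjusted by Benjamini-Hochberg over all genes tested, on 8 libraries for each olaparib effect and for the line comparison and on 16 for the interaction. The SE was obtained by dividing each log2 fold change by the root of its F value. Normalized counts use TMM factors over all 16 libraries, and log2 CPM a prior count of 0.5. The main fits held no block, so calls and adjusted p are unpaired unless the block is named. For UWB1.289 a fit with the replicate number as a block is given beside the main fit. Its same-numbered DMSO and olaparib libraries correlated at 0.135 to 0.248 across 9159 genes after removal of group means. The column names give same-numbered libraries of both lines and treatments a shared prefix, and the design text describes repeats of the whole experiment. No label states that same-numbered libraries are pairs. Giving the block beside the main fit for UWB1.289 only rests on these correlations. On simulated data with 200 changed genes, edgeR called 91, 86, 87 and 58 of 100 genes changed 1.5-fold. These are the OVCAR3, UWB1.289, line and interaction fits in turn. All 100 genes changed 3-fold were called, with 14 to 21 false calls. The changed genes had a mean count of at least 50, and all genes had the same dispersion, so members with few counts were not covered.

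All 40 members may be named. Values per library are given for members called in a comparison (at most 25, by adjusted p), for BRCA1, BRCA2, PALB2, BARD1 and POLQ, and for members near 0 counts. Other lists are given by counts and medians, and by name where called beyond 2-fold or for MKI67, PCNA, CCNA2, CDK1, CCNE1, E2F1, TOP2A and PARP1. The members and all lists were chosen with earlier results of these data known. Alternatives were DESeq2 1.42.0, its size factors, no filter, all 16 libraries, the replicate block, an adjusted p below 0.05, an average count above 50 and leaving out each library in turn.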

Additional observations from a re-analysis of the deposited data

Results flagged for a closer look

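The olaparib effect differed between the lines in 8 members by the interaction test over 16 libraries, each time lower in UWB1.289. The log2 fold change in UWB1.289 minus that in OVCAR3 was -0.7157 for FANCI, -0.5514 for FANCD2, -0.8049 for FANCG, -0.6334 for BLM, -0.6756 for BRIP1, -0.5364 for CHEK1, -0.6684 for FANCA and -0.6303 for EME1. Genes of S phase and of G2 and mitosis differed in the same direction, with 15 of 30 and 6 of 30 called lower, against 5.83% of all genes. Their part in the difference was not tested.

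Of 160 sets of 4 libraries (40 members in 4 groups), 9 held a library far from the other 3 by Dixon's test, where chance gives about 1 in 20. The values are normalized counts. In OVCAR3 with olaparib BRIP1 replicate 1 lay at 162.1 against 200.2 to 207.4 in the others, BRCA2 replicate 3 at 251.9 against 314.6 to 325.3, RAD51B replicate 2 at 14.16 against 18.45 to 19.13, RBBP8 replicate 3 at 543.4 against 582.7 to 589.1 and WRN replicate 1 at 235.7 against 309.1 to 317.4. In OVCAR3 with DMSO RAD54B replicate 1 lay at 11.78 against 15.8 to 15.95. In UWB1.289 PALB2 replicate 1 with olaparib lay at 119.9 against 186.1 to 198.6, WRN replicate 2 with DMSO at 175.2 against 152.1 to 152.4, and FANCF replicate 3 with DMSO at 34.15 against 45.37 to 46.9. Of the 9, only the WRN value in UWB1.289 was the highest of its group. BRIP1 and BRCA2 are called in OVCAR3 with these libraries, and both were also called without them.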

How the results depend on the processing

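The signs of the members' medians held under every alternative run, and calls near the threshold moved. The share of all genes called was not computed for these runs, except for the replicate block in UWB1.289. In UWB1.289, as many members were called higher as lower without DMSO replicate 2 or 4 or olaparib replicate 3. In OVCAR3 1 member instead of 2 was called lower with no filter on low counts and with an adjusted p below 0.05. In UWB1.289 1 was called higher and 2 lower with an adjusted p below 0.05. The median of the interaction was -0.2714 with no filter.

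Without single libraries, OVCAR3 calls ranged from 7 to 11 higher and 0 to 2 lower with a median of 0.161 to 0.2311. UWB1.289 calls ranged from 0 to 3 higher and 2 to 4 lower, with 0 to 1 past the 2-fold rule and a median of -0.1267 to -0.0736. In OVCAR3 0 members were called lower without DMSO replicate 4, and 1 without DMSO replicate 1 or olaparib replicate 1, 2 or 3. In UWB1.289 0 were called higher without DMSO replicate 3 and 1 without replicate 1 of either treatment, 2 were called lower without DMSO replicate 1, 2 or 4 or olaparib replicate 3, and 1 passed the 2-fold rule without DMSO replicate 4 or olaparib replicate 3 or 4. The median of the line comparison ranged from 0.002 (without OVCAR3 DMSO replicate 4) to 0.0885, and 6 to 9 interactions were called. Among the members described in full, signs changed for uncalled fold changes near 0, which were those of PALB2 in OVCAR3 (-0.0301 to 0.1442), in UWB1.289 (-0.0546 to 0.1628) and in the interaction (-0.1436 to 0.1299), BARD1 in OVCAR3 (-0.0769 to 0.0153), POLQ in UWB1.289 (-0.0068 to 0.1913) and CHEK1 in UWB1.289 (-0.0931 to 0.0715). The other members were not followed for this. The cause was not tested.

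With the replicate number as a block, 10 members were called higher and 2 lower in OVCAR3, which adds FANCA (0.4178, adjusted p = 0.0668), 3 and 6 in UWB1.289 (XRCC2, ATM and EME1 added), 15 and 16 between the lines (RAD54L lost, adjusted p = 0.117) and 0 and 8 in the interaction. No other member's call changed with the block. Same-numbered libraries correlated at 0.0580 to 0.184 in OVCAR3 and -0.0115 to 0.0183 between the lines. Apart from FANCA in OVCAR3, the block is given only here for these. The OVCAR3 range overlaps that of UWB1.289 (0.135 to 0.248). In each line 1 of 4 DMSO libraries correlated best with another number than its own. DESeq2 called 11, 5, 31 and 8 members in OVCAR3, UWB1.289, the line comparison and the interaction, where edgeR called 11, 6, 32 and 8. Calls lost in these fits were FANCG in UWB1.289 and RAD54L between the lines with DESeq2, RIF1 and MRE11 in OVCAR3, FANCG in UWB1.289, FANCC between the lines and EME1 in the interaction with no filter, and FANCL in UWB1.289 and RAD54L between the lines with all 16 libraries in 1 fit. ATM was gained in UWB1.289 with no filter, and FANCA in OVCAR3 with the size factors of DESeq2 and with all 16 libraries. Members with few counts (RAD50, RAD51B, RAD54B, RAD52 and SLX4) carry large counting errors. RAD50 also shares its 3' end with a transcript model on its own strand, and the part of this in its low counts was not tested.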
